A study of Mus musculus with 9 samples.

Results

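Collagen chains other than those of cartilage were compared between mouse tumours that carried the SYT-SSX fusion oncogene of human synovial sarcoma and normal mouse skeletal muscle. The chains were chosen with earlier results of these data known, although by a rule that itself uses no measured value. The list held 34 chain genes, taken by name from the fibrillar, basement membrane, beaded filament, fibril-associated (FACIT) and smaller collagen classes. A probe set with that single gene symbol was present for 29 of them, out of 14440 genes, and 26 could be tested, out of 10646 genes. Col3a1, Col4a2, Col8a1, Col12a1 and Col28a1 were not analysed here, so the partner chain of type IV and the type III chain have no value below. The 5 tumours came from mice labelled MYF-5 CRE/SSM2 and are numbered in the order CC23 (tumour 1), CC17-B (tumour 2), CC17-A (tumour 3), SSM5 (tumour 4) and SSM4 (tumour 5). In this notation a Cre recombinase under the control of Myf5, a gene of muscle precursor cells, acts on a conditional allele. The 4 control samples were wild type muscle without either allele, from a hind limb (muscle 1), intercostal muscle (muscle 2), a forelimb (muscle 3) and a further hind limb (muscle 4). Genotype, transformation and tissue composition therefore differed together between the groups and cannot be told apart. Tumours 2 and 3 share the number CC17, and neither the age of the mice nor whether samples came from separate animals is stated.

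Collagens are secreted proteins in which 3 chains wind into a helix. Fibrillar chains build the tensile fibrils of connective tissue, type IV chains form the sheet of basement membranes, and type VI chains form the beaded filaments that surround each muscle fibre. FACIT chains sit on the surface of fibrils, and transmembrane chains stay anchored to the cell that makes them. In skeletal muscle most of this matrix is made by fibroblasts between the fibres, and the fibre itself sits in a sheath of type IV collagen and associated chains. Before secretion the chains are hydroxylated on proline and lysine and folded with dedicated chaperones, and afterwards they are trimmed and cross-linked.

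The series offers expression arrays only, so the level of a chain's transcript is what was measured, as a scaled intensity of 1 probe set per gene. Fold changes are differences of log2(scaled intensity + 16), tumour minus muscle, with the standard error (SE) from limma. A gene counts as called when limma's Benjamini-Hochberg adjusted p over all 10646 genes was under 0.05. A level below an array's 40th percentile of all probe sets, which lay between 96.5 and 137 scaled units, is described as below the floor. Intensities of different probe sets are not comparable as amounts, so no gene is called more abundant than another, and sums or ratios over several probe sets are compared only between arrays. In bulk tissue, fewer cells of a type and less RNA per cell cannot be told apart.

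Promoters of 4 chains, picked after their values were seen, are printed here because their transcripts gave clear contrasts among the basement membrane, FACIT and transmembrane chains. They are the 250 bases before the start site in RefSeq (GRCm38.p6), written in the direction of transcription, with matches to CCAAT, to GGGCGG and to TATAAA on either strand in capitals. Col4a5 (chrX:141475169-141475418, + strand) and Col4a6 (chrX:141474077-141474326, − strand) are transcribed away from each other from start sites 1343 bases apart, and the first was high in every tumour while the second stayed near the floor. Col16a1 (chr4:130047590-130047839, + strand) and Col23a1 (chr11:51289670-51289919, + strand) gave the largest fold changes of the FACIT and transmembrane chains.
Col4a5: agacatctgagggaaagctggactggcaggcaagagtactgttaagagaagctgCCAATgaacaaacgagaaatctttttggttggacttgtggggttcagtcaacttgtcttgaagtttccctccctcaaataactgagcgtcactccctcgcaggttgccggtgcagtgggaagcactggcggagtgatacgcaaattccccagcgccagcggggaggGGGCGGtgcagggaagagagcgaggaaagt
Col4a6: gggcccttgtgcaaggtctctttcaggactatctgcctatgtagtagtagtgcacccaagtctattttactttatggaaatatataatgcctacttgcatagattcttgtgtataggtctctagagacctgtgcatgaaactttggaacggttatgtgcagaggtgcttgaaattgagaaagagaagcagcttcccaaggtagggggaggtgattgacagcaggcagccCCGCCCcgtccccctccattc
Col16a1: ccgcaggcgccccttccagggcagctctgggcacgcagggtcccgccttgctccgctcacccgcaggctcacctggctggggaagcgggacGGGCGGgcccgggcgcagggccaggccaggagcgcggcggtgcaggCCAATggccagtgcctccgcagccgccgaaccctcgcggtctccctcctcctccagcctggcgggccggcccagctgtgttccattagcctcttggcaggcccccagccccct
Col23a1: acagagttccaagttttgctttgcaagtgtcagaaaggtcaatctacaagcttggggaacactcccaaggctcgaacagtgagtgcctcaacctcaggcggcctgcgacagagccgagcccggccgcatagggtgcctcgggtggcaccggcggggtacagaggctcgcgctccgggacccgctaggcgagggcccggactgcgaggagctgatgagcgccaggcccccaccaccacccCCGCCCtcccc
The table held 25 such windows for the chains analysed, some chains having more than 1 start site. Their median GC content was 59.6%, against 52.4% over the 32851 windows of all genes. GGGCGG, the letters of a GC box, occurred in 14 of 25 windows, against 32.7% of all windows. CCAAT occurred in 9 of 25, against 33.8%, and TATAAA in 2 of 25, against 12.4%. The windows for Col4a5 and Col16a1 each hold CCAAT and GGGCGG, while those for Col4a6 and Col23a1 hold GGGCGG on the reverse strand only. These matches are letters in a window and were not set against binding data.

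Chains were called in both directions, and the fibrillar, basement membrane and FACIT classes each held both higher and lower chains. Every lower chain was below the floor in most tumours. Of the 26 chains tested, 10 rose in the tumours (38.5%, against 30.1% of all genes tested), 4 fell (15.4%, against 18% of all genes tested) and 12 were not called. The 2 groups did not overlap for 11 chains (42.3%, against 40.5% of all genes tested), all of them called. These shares lie near those of the whole array, so the count of changed chains does not set the collagens apart. The median fold change of the chains was 0.47, beside 0.23 for all genes tested. Higher calls made up 62.6% of all calls over the array, but 49.4% when arrays were scaled on their medians and 78.2% when they were scaled on ribosomal protein and proteasome genes, and the median of all genes then lay at −0.0066 and 0.57. Under those scalings the chains gave 9 higher with 5 lower and 11 higher with 3 lower. Col24a1 and Col19a1, both lower, reached the floor in muscle only and so passed the filter through the group in which they were high. The other lower chains, Col4a4 and Col22a1, reached it in 1 and 2 of 5 tumours. Of the 16 tested chains at the floor or above on all arrays, 8 were called higher and 0 lower. That count was not made over all genes tested.

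**Figure D1:**
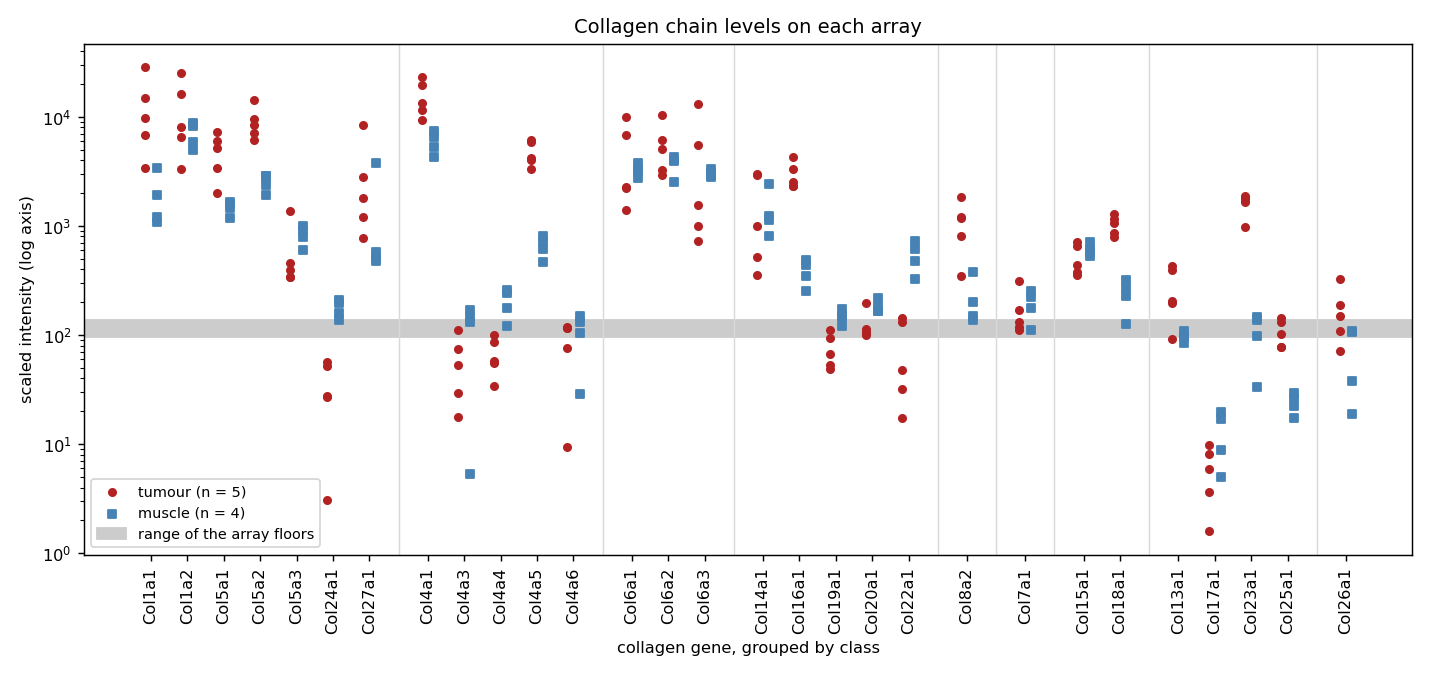
Scaled intensity (log axis) of the 29 collagen genes with a probe set, grouped by class, in 5 tumours (circles) and 4 muscles (squares), with the range of the array floors in grey. Col4a5, Col16a1 and Col23a1 sit high in all 5 tumours, Col24a1 and Col19a1 lie below the floor in all 5, and Col6a1 and Col6a3 spread to both sides of muscle.

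Among the fibrillar chains, 7 were tested, of which 3 rose, 1 fell and 3 were not called, with a median fold change of 1.28. Col1a1, the alpha 1 chain of the main fibril collagen, rose by 2.52 (SE 0.55, adjusted p = 0.00313). Its scaled intensity was 6869, 3416, 9784, 28520.3 and 14923 in tumours 1 to 5 and 1097, 3430.1, 1919 and 1207 in muscles 1 to 4. Tumour 2 and the intercostal muscle 2 met at the edge of the 2 groups, while the other 4 tumours lay above all muscles. Col1a2, which supplies the remaining chain of type I, gave 8136, 3359, 6527, 25082 and 16312 in the tumours and 5004, 8184, 8715 and 5837 in muscle. Only tumours 4 and 5 exceeded the muscle range and tumour 2 was below it. The fold change of Col1a2 was 0.47 (95% confidence interval −0.62 to 1.57, adjusted p = 0.457) and was not called, and its sign turned to −0.068 when its 2 probe sets were averaged, the dimmer of which reached the floor on 2 arrays only.

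Type V collagen is a minor fibril component that sets fibril diameter. Col5a2 rose by 1.80 (SE 0.26, adjusted p = 0.000222), with 6106, 7121, 9533, 14257 and 8434 in tumours 1 to 5 against 1921, 2881, 2893 and 2390.4 in muscles 1 to 4. The tumours all lay above the muscles, and the highest tumour was 2.34 times the lowest. A second Col5a2 probe set gave a fold change of 2.19. Col5a1 rose by 1.56 (SE 0.34, adjusted p = 0.00312), from 1177, 1599.9, 1456 and 1671 in muscle to 7277, 6021, 2015, 5171 and 3369 in the tumours, again without overlap. The size for Col5a1 depended on the probe set: the other 2, also above the floor on all arrays, gave 0.69 and 0.43, and their mean with the brightest gave 0.89 (adjusted p = 0.0343). Col5a3, the third chain, was 338, 337, 458, 1374 and 392 in the tumours and 919.8, 607, 786 and 998 in muscle. All tumours but tumour 4 were below all muscles, and the fold change of −0.71 (adjusted p = 0.15) was not called. Without tumour 4 it was −1.07 (adjusted p = 0.0032), and it was −1.29 (adjusted p = 0.00237) when averaged with a second probe set that was below the floor on all 9 arrays.

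The remaining fibrillar chains, types XXIV and XXVII, are minor collagens; Col27a1 is best known from cartilage. Col24a1 measured 158, 136, 196 and 210.0 in muscle and 3.06, 27.9, 52.3, 56.6 and 27.2 in the tumours, where every array was below the floor. Its fitted change was −2.08 (adjusted p = 0.00327), which moved between −2.78 and −1.32 with pseudocounts of 1 and 64. Measured against the floor of the tumour arrays, muscle was at least 1.48-fold higher. Col27a1 was 8387, 2816, 1818, 1219 and 775 in tumours 1 to 5. In muscles 1 to 4 it was 474, 3807, 574 and 504, so that muscle 2 alone overlapped the tumours. Its fold change of 1.28 (SE 0.74, adjusted p = 0.173) was not called with all arrays, and was 1.99 (adjusted p = 0.0251) without muscle 2. Its second probe set gave 1.79 over all arrays. Muscle 2 also carried cartilage transcripts: Col10a1, made by hypertrophic cartilage cells, was at 6131 there and at 9.46, 7.49 and 19.2 in muscles 1, 3 and 4. Acan, the large proteoglycan of cartilage, was 3409.6 in muscle 2 and 107, 339 and 187 in the others. Col2a1, the main cartilage fibril chain, differed from these: it was 3123, 735 and 162 in muscles 2, 3 and 4 and below the floor in muscle 1, but 5817, 9869, 4083, 3752 and 3554 in the tumours, and it rose by 3.75 (adjusted p = 0.00768). The part of these cells in the Col27a1 result was not tested beyond leaving muscle 2 out.

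**Figure D2:**
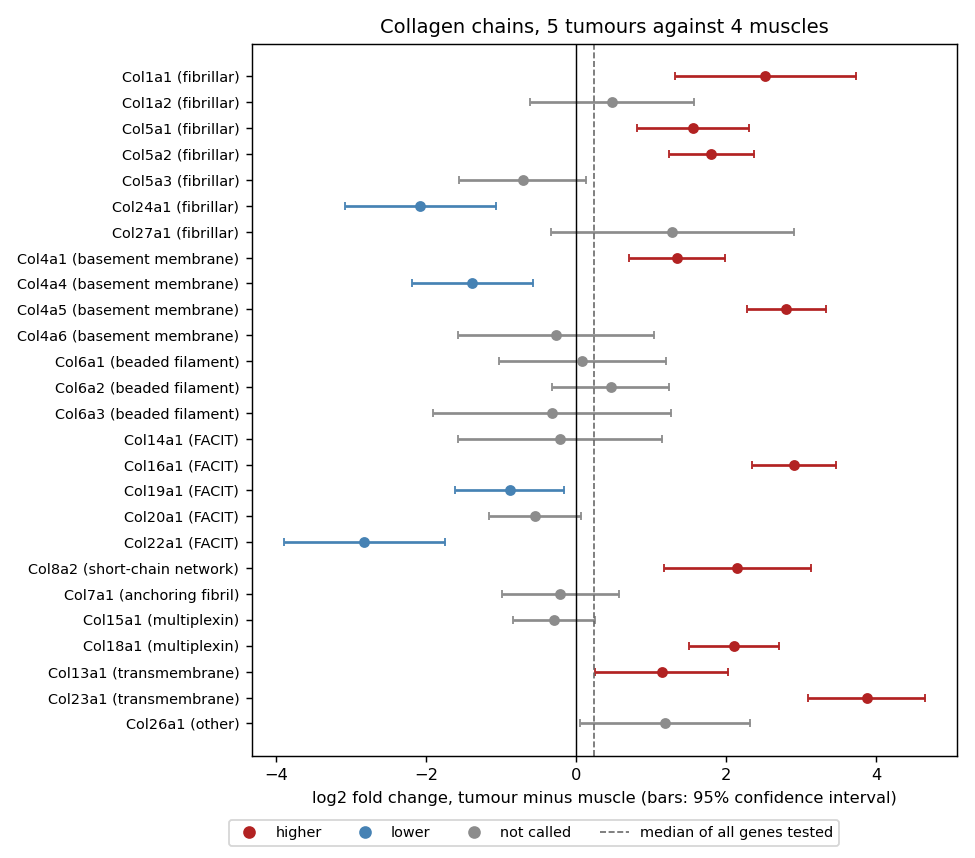
Log2 fold change of each tested collagen gene, tumour minus muscle, with its 95% confidence interval from limma (5 tumours, 4 muscles), coloured by call, and the median of all genes tested as a dashed line. Col23a1 lies highest at 3.87 and Col22a1 lowest at −2.82, and the type VI chains straddle 0.

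Of the 6 type IV chains of basement membranes, 4 were tested, of which 2 rose, 1 fell and 1 was not called, with a median of 0.54. Col4a1, part of the network found under nearly all epithelia, vessels and muscle fibres, was 23243, 19411, 11673, 13377 and 9386 in the tumours and 5242, 4262, 6602 and 7351 in muscle. The groups did not overlap, and the change was 1.34 (SE 0.29, adjusted p = 0.00294). A second probe set gave 1.16. Its usual partner Col4a2 was not analysed here. Col4a5, a chain of the alternative networks of kidney and smooth muscle, rose by 2.80 (SE 0.24, adjusted p = 1.21e-05), and its other probe set gave 1.92. In tumours 1 to 5 it measured 3329, 4168, 4013, 6131 and 5855, and in muscles 1 to 4 805, 470.4, 617 and 731. The lowest tumour was thus several times the highest muscle, and the spread among tumours was 1.84-fold. On the other probe set the tumours ran from 217 to 1255, and the lowest of them lay just above muscle 2 (207).

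Col4a6, which joins Col4a5 in smooth muscle and skin and is its neighbour on chromosome X, measured 118, 9.40, 116, 76.8 and 116 in the tumours and 104, 132, 28.5 and 149 in muscle. It reached the floor in 1 of 5 tumours and 3 of 4 muscles, and its fold change of −0.27 was not called (95% confidence interval −1.57 to 1.04, adjusted p = 0.738). Its sign is not settled, since it turned to 0.029 with scaling on ribosomal protein and proteasome genes and to 0.19 without tumour 2. Col4a4, a chain of the kidney glomerulus network, fell by 1.39 on the log2 scale (adjusted p = 0.00933), from 258, 120.1, 176 and 242 in muscle to 55.2, 57.4, 34.0, 86.7 and 101 in the tumours, of which only tumour 5 reached the floor. Col4a3, its partner in that network, was not tested, as it reached the floor in 3 muscles and no tumour.

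The beaded filament chains of type VI, which bind basement membrane to the surrounding matrix, gave no call among 3 tested, with a median of 0.081. Their levels ranged widely among the tumours. Col6a1 measured 2217, 1392, 2259.9, 9948 and 6770.0 in tumours 1 to 5 and 3283, 2764, 3195 and 3789.7 in muscles 1 to 4. Tumours 1, 2 and 3 were below every muscle and tumours 4 and 5 above every muscle. The fold change of 0.081 had a 95% confidence interval of −1.03 to 1.19 (adjusted p = 0.908), and its sign changed with the values as deposited (−0.051), with median scaling (−0.17), and without tumour 4 (−0.30) or tumour 5 (−0.16).

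Col6a3, the largest type VI chain, also split the tumours, with 1547, 989, 721, 13159 and 5512 in the tumours against 2791, 2926, 3033 and 3358 in muscle. Here too tumours 1, 2 and 3 lay below all muscles and tumours 4 and 5 above, an 18.3-fold range among tumours. The fold change was −0.32 (95% confidence interval −1.91 to 1.26, adjusted p = 0.738), and it turned to 0.029 with scaling on ribosomal protein and proteasome genes and to 0.11 without tumour 3. Col6a2 gave 5046, 2920.2, 3234, 10503 and 6115 in the tumours and 4242, 2517, 4007 and 3966 in muscle. Tumours 2 and 3 were within the muscle range and tumours 1, 4 and 5 above it, with a fold change of 0.46 (adjusted p = 0.306). For all 3 chains the interval includes changes of more than 1 log2 unit, so the missing call does not show equal levels.

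Of the FACIT chains, 5 were tested: 1 rose, 2 fell and 2 were not called, with a median of −0.55, below the 0.23 of all genes. Col16a1, which links fibrils and microfibrils to cells, gave the second largest increase of any chain here, 2.90 (SE 0.25, adjusted p = 1.24e-05). It measured 4248, 2309, 2327, 3326 and 2547 in tumours 1 to 5 and 254, 485, 438 and 347 in muscles 1 to 4, so every tumour stood far above every muscle. Col22a1, a collagen of the junction between muscle and tendon, fell by 2.82 on the log2 scale (SE 0.49, adjusted p = 0.000722). It was 616, 328, 729 and 478 in muscle and 143, 132, 17.4, 32.3 and 47.8 in the tumours, of which only tumours 1 and 2 reached the floor. One further Col22a1 probe set gave −2.59 and another −0.21, and averaging all 3 gave −1.87.

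Col14a1, which binds fibrils in tendon and the sheaths of muscle, was likewise highest in tumours 4 and 5. Its levels were 522, 990.5, 353, 2966 and 2938 in the tumours and 1137, 2410.5, 1221 and 804 in muscle, so tumours 4 and 5 were above every muscle and tumours 1 and 3 below every muscle. The fold change of −0.21 (adjusted p = 0.798) was not called and turned positive without muscle 2 (0.087), tumour 1 (0.051) or tumour 3 (0.19). Col19a1, a rare basement membrane zone collagen, was 149, 119.8, 173 and 146 in muscle and below the floor in every tumour (66.6, 53.5, 111, 94.7 and 48.6). Its change of −0.88 passed only just (adjusted p = 0.0449), muscle being at least 1.27-fold higher than the tumour floor, and the call was lost without tumour 1, 2, 4 or 5 (adjusted p from 0.0513 to 0.0921). Col20a1 was 196, 101, 107, 113 and 104 in the tumours and 184, 167, 167 and 219 in muscle, with a fold change of −0.55 (adjusted p = 0.13). Tumour 1 was the only tumour within the muscle range, and without it the change was −0.71 (adjusted p = 0.0376). It was also called lower with array medians (−0.77, adjusted p = 0.0472) and with quantile normalization (−0.72, adjusted p = 0.0455). Averaging its probe sets gave −0.31 (adjusted p = 0.501), and only 3 of 5 tumours reached the floor.

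**Figure D3:**
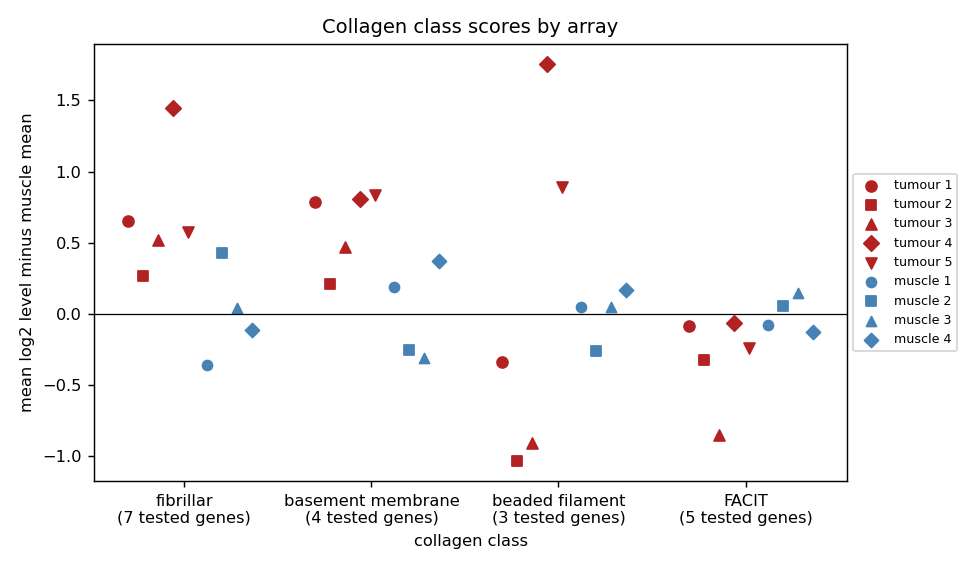
Mean log2 level of the tested genes of 4 collagen classes on each array, minus the mean of the 4 muscles, for 5 tumours (red) and 4 muscles (blue). The beaded filament score runs from −1.04 in tumour 2 to 1.76 in tumour 4, while the basement membrane score lies between 0.21 and 0.83 in the tumours. All scores but the beaded filament one include values below the floor.

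The log2 levels of the tested chains of a class were averaged on each array, relative to muscle. The fibrillar, basement membrane and FACIT scores include values below the floor, which have no measured size. Among them are Col24a1 in tumour 1 (3.06) and Col4a6 in tumour 2 (9.40), so the order of the tumours in these scores is not settled. The fibrillar score was 0.65, 0.27, 0.52, 1.45 and 0.58 in tumours 1 to 5, against −0.36 to 0.43 in muscle. For basement membrane chains it was 0.79, 0.21, 0.47, 0.81 and 0.83, against −0.31 to 0.37 in muscle. Both scores were above 0 in every tumour, although the lowest tumour was within the muscle range in each case. The beaded filament score was −0.34, −1.04, −0.91, 1.76 and 0.89, which put tumours on both sides of the muscle range of −0.26 to 0.17. The FACIT score lay below 0 in every tumour, from −0.85 to −0.066, beside −0.12 to 0.15 in muscle. Tumours 1 (−0.087) and 4 (−0.066) were within that muscle range. This score combines the large rise of Col16a1 with the falls of Col22a1 and Col19a1. Scaling by a constant factor per array shifts all genes nearly alike, so medians relative to all genes could move little except with quantile normalization. With it the relative fibrillar median stayed at 1.05, as in the main scaling, and that of the beaded chains went from −0.15 to 0.23. The fibrillar median is the value of Col27a1, a chain that was not called.

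The short-chain, multiplexin and transmembrane chains supplied 4 of the 10 increases. Col8a2, of the hexagonal network of the cornea and vessel wall, rose by 2.15 (adjusted p = 0.00236). It was 808, 347, 1202, 1172 and 1835 in the tumours and 136, 379.9, 203 and 148 in muscle, with tumour 2 below muscle 2 as the only overlap. Col18a1, the basement membrane chain whose fragment is endostatin, rose by 2.10 (SE 0.27, adjusted p = 0.000123), and a second probe set gave 2.03. Its levels were 853, 1297, 1155, 1055 and 794 in tumours 1 to 5 and 270.1, 321, 229 and 126 in muscles 1 to 4, with a 1.63-fold range among tumours, the smallest of the tested chains on the probe sets used. The second probe set ran more widely among the tumours, from 608 to 1498. Col15a1, the related chain that stabilises muscle fibres and capillaries, was 650.2, 436, 354, 718 and 382 in the tumours and 709, 577, 528 and 602 in muscle. Tumours and muscles overlapped, and the fold change of −0.29 was not called (95% confidence interval −0.83 to 0.25, adjusted p = 0.357), turning to 0.052 with scaling on ribosomal protein and proteasome genes.

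Col23a1, a transmembrane collagen that can be shed from the cell surface, gave the largest change of all 26 chains, 3.87 (SE 0.36, adjusted p = 1.58e-05). The tumours measured 1807, 1674, 974, 1873 and 1767, and the muscles 98.6, 33.4, 138 and 145, of which only muscles 3 and 4 reached the floor. Every tumour was well above every muscle, and 2 other probe sets gave 4.61 and 4.16. Col13a1, a transmembrane collagen of the neuromuscular junction, was 396, 425, 197, 92.6 and 204 in the tumours and 108, 97.2, 85.1 and 96.0 in muscle, where only muscle 1 reached the floor. Tumour 4 lay within the muscle range. Its change of 1.14 was called at adjusted p = 0.0365, but without any 1 of the 4 muscles, or without tumour 1 or 2, the adjusted p was between 0.0628 and 0.0832. The call was also lost with tumours 2 and 3 averaged (1.06, adjusted p = 0.0528), with the values as deposited (1.02, adjusted p = 0.0504) and with array medians (0.91, adjusted p = 0.0811). Col25a1, which takes part in motor innervation of muscle, was not tested, with 77.1, 77.7, 133, 103 and 142 in the tumours and 29.7, 17.4, 22.4 and 26.7 in muscle, where all arrays were below the floor. Col17a1, of the hemidesmosomes of epithelia, was below the floor on all 9 arrays.

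Col7a1, which forms the anchoring fibrils of skin, measured 111 to 311 in the tumours and 111 to 253 in muscle and was not called (−0.21, adjusted p = 0.649); its sign turned to 0.11 with scaling on ribosomal protein and proteasome genes. Col26a1, a small collagen described from reproductive tissue, was 189.7, 148, 327, 108 and 71.6 in the tumours and 37.6, 109.6, 18.9 and 106 in muscle. It reached the floor in 4 of 5 tumours and 1 of 4 muscles. Its change of 1.18 was not called (adjusted p = 0.0792) with all arrays, was 1.41 (adjusted p = 0.0457) without tumour 5, and was 1.46 (adjusted p = 0.032) with scaling on ribosomal protein and proteasome genes.

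**Figure D4:**
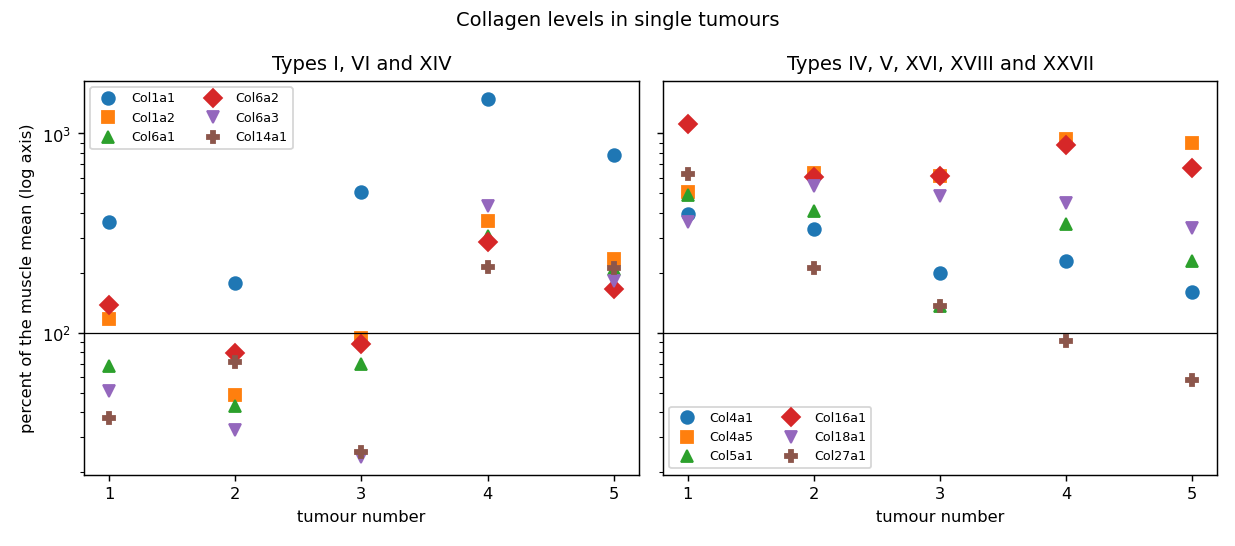
Level of single collagen genes in each tumour as a percent of the mean of the 4 muscles (log axis, line at 100). The type I, VI and XIV chains stand highest in tumours 4 and 5, whereas Col4a1, Col5a1, Col16a1 and Col27a1 stand highest in tumour 1. The other probe sets of Col4a1 and Col5a1, not drawn, were not highest in tumour 1.

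The spread of the chains from tumour to tumour was wide. The median SD of log2 levels among the 5 tumours was 0.74 over the 26 chains, beside 0.47 over all genes tested, and 19 of 26 chains lay above the latter. Of the 17 tested chains that reached the floor in all 5 tumours, 11 were highest in tumour 4, 4 in tumour 1 and 1 each in tumours 2 and 5. The lowest level was in tumour 2 for 7 of them and in tumour 3 for 5. These counts were not made over all genes tested, so they do not set the collagens apart. They also depend on the probe set: Col23a1 was highest in tumour 4, but its other probe sets were highest in tumour 1 (1900) and tumour 5 (2131). Col1a1, Col1a2, Col6a1, Col6a2, Col6a3 and Col14a1 were highest in tumours 4 and 5, the ones labelled SSM, whose Col1a1 stood at 1491% and 780% of the muscle mean. On the probe sets used, Col4a1, Col5a1, Col16a1 and Col27a1 were highest in tumour 1, where Col27a1 stood at 626% of the muscle mean, against 57.9% in tumour 5. The second Col4a1 probe set was instead lowest in tumour 1 (2282) and highest in tumour 3 (3723). The other Col5a1 probe sets were highest in tumour 4 (663 and 2621, against 211 and 678 in tumour 1). The 3 tumours labelled CC and the 2 labelled SSM were not compared by a test.

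Fibroblast and muscle fibre transcripts also differed between the tumours. The summed level of 10 fibroblast markers was 36177, 40577, 16278, 83841 and 63872 in tumours 1 to 5, so it was highest in tumours 4 and 5, and it was 101559 to 128195 in muscle, where the bright probe sets of Gsn and Dcn carry most of it. Of these 10 markers 1 was higher in the tumours, 5 lower and 4 not called. Pdgfra, a fibroblast receptor, rose by 1.02 (adjusted p = 0.015), and Dcn, the proteoglycan decorin, fell by 1.05 on the log2 scale (adjusted p = 0.031). All 9 skeletal muscle fibre markers were lower, and their summed level ran from 335 in tumour 4 to 112675 in tumour 5, against 452366 to 580865 in muscle. Acta1, the actin of muscle fibres, had a change of −4.58 (adjusted p = 0.0201), and Ckm, muscle creatine kinase, one of −6.50 (adjusted p = 0.00415). Each of the 10 fibroblast markers reached the floor in at least 1 tumour and 1 muscle, and the part of fibroblasts or fibres in the collagen levels was not tested.

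Among endothelial markers 0 were higher and 5 lower of 9, and Pecam1, an endothelial adhesion molecule, had a change of −1.39 (adjusted p = 0.059). Among mural cell markers 0 were higher and 3 lower of 8, with Pdgfrb at −0.29 (adjusted p = 0.485). Schwann cell markers gave 0 higher and 3 lower of 5, macrophage markers 2 higher and 0 lower of 5, and tendon cell markers 2 higher and 2 lower of 5. No adipocyte marker was called of 4 tested, with a median of −2.43, and Fabp4, a fatty acid binding protein, was lower in every tumour than in any muscle (−2.86, adjusted p = 0.0536). The summed adipocyte level was 782 to 35848 in the tumours, 127060 in muscle 2 and 29344 to 36839 in the other muscles. The only keratinocyte marker tested was not called. Limma called none of 6 bone and cartilage markers, whose summed level was 15166 in muscle 2 and 3984 in muscle 3, but 1235 and 1381 in muscles 4 and 1 and 796 to 1819.7 in the tumours. Acan itself was not called (−1.86, adjusted p = 0.0672). With muscles 2 and 3 left out, 9 chains were higher and 1 lower of 22 tested. Col24a1, Col4a4 and Col19a1 then failed the filter and were not tested, so their lower calls were not lost in a test. All 9 fibre markers were high in the 4 samples labelled skeletal muscle. Ss18, the gene of the SYT part of the fusion, rose by 1.17 in the tumours (adjusted p = 0.000508), on a probe set that was not checked for its position relative to the fusion.

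The genes that modify, fold, trim, cross-link and bind collagen differed by step. Of 50 listed, 36 had a probe set and 34 were tested: 17 rose (50%, against 30.1% of all genes), 4 fell (11.8%, against 18%) and 13 were not called, with a median of 0.96. In the 8 tested genes of proline hydroxylation, 5 rose and 1 fell. Crtap, the cofactor of prolyl 3-hydroxylase, rose by 3.23 (SE 0.29, adjusted p = 1.54e-05), from 425, 1094, 563 and 457 in muscle to 4385, 7222, 4422, 7265 and 5733 in the tumours, with no overlap. Neither tested catalytic chain of prolyl 4-hydroxylase was called higher: P4ha1 was at −0.095 (adjusted p = 0.779) and not called, and P4ha2 fell by 1.47 on the log2 scale (adjusted p = 0.0088), with 104, 136, 117, 321 and 409 in the tumours against 491, 667, 533 and 518 in muscle. Of the 4 genes for lysine hydroxylation and glycosylation, 3 rose, namely the lysyl hydroxylases Plod1 (0.76, adjusted p = 0.0106), Plod2 (1.24, adjusted p = 0.0177) and Plod3 (1.04, adjusted p = 0.00537), and 1 fell.

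For folding and export, 5 of 8 rose and none fell. Serpinh1, the collagen chaperone of the endoplasmic reticulum, rose by 1.66 (SE 0.24, adjusted p = 0.000236), from 2637, 4996, 2975 and 2541 in muscle to 8507, 9252, 8955, 13256 and 10676 in the tumours, which lay above all muscles. Of 4 genes for propeptide removal, 1 rose and 1 fell: Bmp1, the enzyme that cuts the C-terminal propeptide, rose by 1.14 (adjusted p = 0.00434), while its enhancer Pcolce, at 0.12 (adjusted p = 0.736), was not called. For cross-linking, Loxl1, a lysyl oxidase, rose by 1.22 (adjusted p = 0.00492) and Loxl4, at 0.39 (adjusted p = 0.415), was not called. Among 8 receptors and uptake genes 2 rose and 1 fell. The collagen receptor kinases Ddr1 (0.87, adjusted p = 0.0639) and Ddr2 (0.33, adjusted p = 0.431) and the collagen-binding protein Sparc (0.69, adjusted p = 0.14) were not called. Named after their values were seen, the other 3 genes that fell were Colgalt2, a collagen galactosyltransferase below the floor in every tumour and at least 3.02-fold higher in muscle, Pcolce2 (−0.82), a propeptide cleavage enhancer, and Itga10 (−1.48), a collagen-binding integrin chain, and the receptors and uptake genes that rose were Itgb1 (1.13), the common integrin beta chain, and Mrc2 (1.63), an endocytic collagen receptor. With the values as deposited or with median scaling, 13 of the 34 were higher in place of 17.

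Partner chains here are chains that assemble together or, as with Col15a1 and Col18a1, the closest members of a class. Their ratios within an array depend little on how arrays are scaled. The same number of calls, 3, under each of the 5 scalings therefore adds little to those calls. Of 9 pairs listed, 6 could be tested with an exact two-sided permutation test over the 126 ways to assign the arrays, which cannot give a p under 0.00794, and the p-values were adjusted over the 6 pairs. The log2 ratio of Col1a1 to Col1a2 was 0.084 ± 0.32 (SD, n = 5) in the tumours and −1.96 ± 0.48 (SD, n = 4) in muscle, a difference of 2.05 (exact p = 0.00794, adjusted 0.0159). Type I collagen is usually built from 2 alpha 1 chains and 1 alpha 2 chain, and in every tumour the alpha 1 signal was higher relative to alpha 2 than in any muscle. The pair Col4a5 and Col4a6 passed the same test, but Col4a6 was below the floor in 4 of 5 tumours, so its ratio has no measured size there and adds nothing to the rise of Col4a5. The ratio of Col15a1 to Col18a1 was lower by 2.39, at −1.03 ± 0.57 (SD, n = 5) against 1.36 ± 0.55 (SD, n = 4) (exact p = 0.00794, adjusted 0.0159). As Col15a1 itself was not called (−0.29), that ratio adds little to the rise of Col18a1 (2.10). These calls were lost without tumour 1, 2 or 3, at adjusted p = 0.0571 (exact permutation test). The differences were then 1.92 to 2.13 for Col1a1 to Col1a2 and −2.55 to −2.23 for Col15a1 to Col18a1. Without tumour 4 both stayed called, among 4 ratios called there. As 4 against 4 arrays cannot give a p under 0.0286, the adjusted p depends on how many pairs reach that value. Without tumour 5 both gave an adjusted p of 0.0714 (exact permutation test).

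The other 3 pairs were not called, which does not show equal ratios. Col5a1 to Col5a2 differed by −0.24 (exact p = 0.659, adjusted 0.659), with tumours between −2.23 and 0.25 and muscles between −0.98 and −0.51. That ratio gave −1.10 (adjusted p = 0.0265, exact permutation test) when probe sets were averaged, and 0.067 without tumour 3. Col6a1 to Col6a2 differed by −0.38 (exact p = 0.278, adjusted 0.417) and Col6a1 to Col6a3 by 0.40 (exact p = 0.381, adjusted 0.457). The latter was 0.63 (adjusted p = 0.0429, exact permutation test) without tumour 4. The type VI ratios in muscle had SDs of 0.24 and 0.14, against 0.58 and 0.73 in the tumours.

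**Figure D5:**
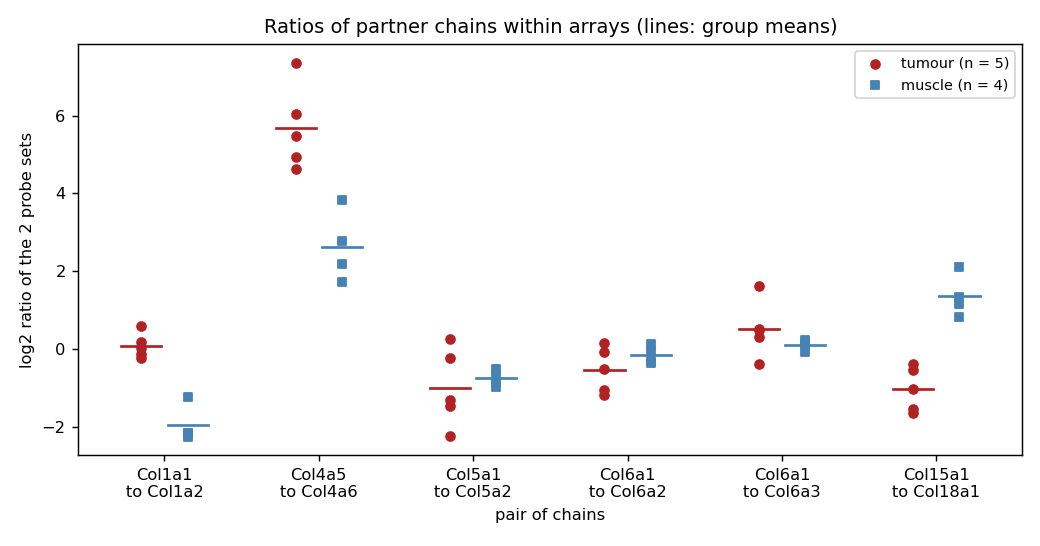
Log2 ratio of the probe sets of 6 pairs of collagen chains on each array, 5 tumours (circles) and 4 muscles (squares), with group means as lines. The ratios of Col1a1 to Col1a2, Col4a5 to Col4a6 and Col15a1 to Col18a1 do not overlap between the groups, that of Col4a5 to Col4a6 resting on a chain near the floor, and the position of a pair on the axis depends on its probe sets and has no meaning as an amount.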

How the data were processed

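The arrays are Affymetrix expression arrays with 1 label per sample. The deposited values are linear intensities, 1 per probe set and array, made with MAS5, per the submitters' processing notes; version and scaling target are not given in the sources used here. The table of 30508 probe sets held 7 controls, 496 with several symbols and 4424 without one, all left out; 25581 had 1 symbol. Symbols came from the platform annotation.

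The 2% trimmed means of the arrays ran from 430.2 to 610.03, so arrays were scaled to their mean, with factors of 0.91 to 1.29. Precision is set by how many arrays each group has. Each gene took its probe set with the highest mean. Genes at or above the 40th percentile on at least 4 of 9 arrays were tested with limma 3.58.1 in R 4.3.3 (trend, two-sided), on log2(scaled intensity + 16), with Benjamini-Hochberg adjustment over all 10646 genes and no covariate. The fit was tested on simulated data. For a gene below the floor in every array of a group, the bound on the fold change sets the other group's mean log2 level against the mean of the floors. Partner chain ratios used exact permutation.

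All chains with a probe set are named, with a list of machinery genes and markers named whatever they showed; P4ha3, P3h1, Fkbp10, Adamts2, Lox, Loxl2, Loxl3, Itga11, Krt5 and Krt14 belong to it and were not analysed here. The 25 lists are 9 collagen classes, 6 of machinery, 10 of markers. Members and lists were chosen with earlier results of these data known. Labels do not say that samples came from separate animals, so p-values measure the spread between samples, which may be technical. Alternatives tried were 4 scalings, pseudocounts of 1 and 64, no filter or a higher floor, averaged or plain probe sets, other variance settings, each array left out, and tumours 2 and 3 averaged; leaving out muscles 2 and 3 together was added after the data were seen. Promoters are from RefSeq.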

Additional observations from a re-analysis of the deposited data

Results flagged for a closer look

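Among 52 sets of arrays, each 1 chain in 1 group, 6 had an array set far apart from the rest, measured as its gap to the nearest array divided by the whole range of the group. Chance gives this in about 1 in 20 sets. Tumour 4 was highest for Col5a3, at 1374.5 against 458 for the next tumour (0.785). Muscle 2 was highest for Col27a1, at 3807 against 574 (0.910), and lowest for Col6a2, at 2517 against 3966 (0.871). Muscle 2 is the intercostal sample with the high cartilage transcripts. Tumour 2 was lowest for Col4a6, at 9.40 against 76.8, with both values below the floor (0.778). Tumour 1 was highest for Col20a1, at 196 against 113 (0.841). Tumour 3 was lowest for Col23a1, at 974 against 1674 (0.827), and remained above every muscle.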

How the results depend on the processing

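Over 23 alternatives none of the 14 called chains changed sign, and Col1a1, Col5a1, Col5a2, Col4a1, Col4a4, Col4a5, Col16a1, Col22a1, Col24a1, Col8a2, Col18a1 and Col23a1 stayed called wherever they were tested. Col13a1 lost its call in 11 of 22 and Col19a1 in 7 of 16. The 10 chains called higher were 9 to 11, also when each array was left out. The 4 called lower were 1 with the floor at the 60th percentile, 1 without muscles 2 and 3, and 2 to 4 with each array left out. With that higher floor or without muscles 2 and 3, Col24a1, Col4a4 and Col19a1 were not tested. Without any 1 of the muscles, 2 were called, as Col24a1 and Col19a1 then reached the floor on 3 arrays and were not tested. The 17 machinery genes called higher were 13 to 18 with each array left out, and the 4 lower were 2 to 4, with 2 under scaling on ribosomal protein and proteasome genes, 2 with the floor at the 60th percentile and 1 without muscles 2 and 3. The 3 called ratios were 0 to 4 with each array left out, 0 with tumours 2 and 3 averaged and 0 without muscles 2 and 3, where 5 against 2 arrays cannot give a p under 0.0476. Changes of sign touched uncalled results: Col1a2 with averaged probe sets (−0.068); Col6a1 with the values as deposited (−0.051), array medians (−0.17), without tumour 4 or 5 (−0.30 and −0.16) and without muscles 2 and 3 (−0.042), running from −0.30 to 0.40 with each array left out; Col6a3 and Col14a1 with tumours 2 and 3 averaged (0.051 and 0.0061), under the ribosomal protein and proteasome scaling (0.029 and 0.14) and without tumour 3 (0.11 and 0.19), running from −0.93 to 0.11 and from −0.57 to 0.19 with each array left out. That scaling also turned Col4a6 (0.029), Col7a1 (0.11) and Col15a1 (0.052). Col4a6 turned without tumour 2 (0.19; −0.68 to 0.19 with each array left out), Col14a1 without muscle 2 (0.087), tumour 1 (0.051) and muscles 2 and 3 (0.20), and the ratio of Col5a1 to Col5a2 without tumour 3 (0.067; −0.55 to 0.067 with each array left out). The cause of these changes was not tested. No paired analysis was possible because the labels number no replicates that the 2 groups share. Values below the array floors, as for Col4a3, Col4a6, Col17a1, Col19a1 and Col24a1, have no order.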
